A study of Arabidopsis thaliana with 6 samples.

Results

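The purple acid phosphatases of Arabidopsis thaliana were represented here by a single gene, PAP20 (locus AT3G52780, on chromosome 3). Members were the probe sets that the platform annotation names with 1 gene whose symbol is PAP followed by a number from 1 to 29, which leaves out the storage protein gene PAP85. The rule found 1 of the 13350 genes that a probe set names alone, of which 1552 carry a symbol. The other genes of the family were not analysed here as members. RNA of siliques, the seed pods of the plant, had been hybridised to 6 ATH1 arrays, 3 of old pods and 3 of young pods. The plants, all Col-1, were raised on compost under glass at 19 °C with light for 24 h per day, and only the sample titles separate old from young pods. Replicates are numbered 1 to 3 within old and within young pods, with no word on whether separate plants were used, so p-values cover the spread between these samples and no more.

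Purple acid phosphatases release phosphate from phosphate esters with a pair of metal ions in the active site, and the bond of the iron to a tyrosine gives them their colour. In Arabidopsis several members are secreted or vacuolar enzymes that are induced when phosphate is scarce, and PAP26, another member, takes part in moving phosphate out of senescing leaves. In the reference gene order PAP21 and PAP22 lie 3 and 4 genes from PAP20, so 3 members of the family sit close together.

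PAP20 was lower in old pods on every array. Its signal, the intensity of the probe set on a linear scale, was 46.3, 15.5 and 9.7 on the arrays of old pods 1, 2 and 3, against 161, 159.1 and 277.5 on the arrays of young pods 1, 2 and 3. The groups did not overlap, and the highest old array, that of replicate 1, stood 3.44-fold under the lowest young array. The lowest old array, that of replicate 3, stood at least 11.4-fold under the highest young array, since its signal was under the background limit used here, the 40th percentile of the array. The mean signal was 23.8 ± 19.7 in old pods and 199 ± 67.8 in young pods (SD, n = 3 arrays each).

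**Figure D1:**
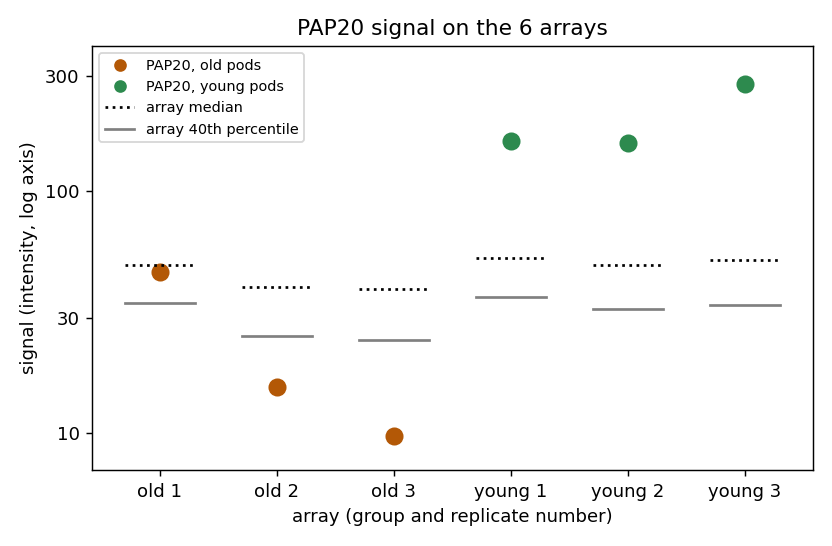
Signal of the PAP20 probe set (intensity, log axis) on each array, with the median (dotted) and the 40th percentile (grey) of that array's probe sets. Old replicate 1, at 46.3, lies between both lines, old replicates 2 and 3 lie under the 40th percentile, and the 3 young arrays lie at 159.1 to 277.5, above both.

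The place of PAP20 among the probe sets of an array also shifted. It was brighter than 48.1%, 29.9% and 23.1% of the probe sets on old arrays 1, 2 and 3, against 80.7%, 80.2% and 89.8% on young arrays 1, 2 and 3. The 40th percentile stands in for background, because detection calls were not used here. All 3 young arrays were above it, by 4.41-fold to 8.23-fold. Of the old arrays, only replicate 1 was above it, by 1.34-fold, while replicates 2 and 3 were at 0.615 and 0.399 of it. The signal of PAP20 in old pods was thus near or under this limit, and the size of the difference depends on how such low signals are treated.

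In the limma fit over all 14277 probe sets tested, PAP20 fell 10.1-fold in old pods. The log2 fold change, old over young, was -3.33 with an SE of 0.55 and a 95% confidence interval of -4.59 to -2.07 (limma adjusted p = 0.00497, lower in 3 of 3 old arrays). That interval spans falls of 4.2-fold to 24.1-fold. The background was high: 22% of all tested probe sets passed the threshold of 0.05, 12.3% of all tested probe sets passed downward, and 23% had groups that did not overlap with old pods lower. An exact permutation test on PAP20 alone gave a two-sided p = 0.1, the smallest that 3 against 3 arrays allow. In bulk tissue, fewer cells that hold the transcript and less of it per cell cannot be told apart. Every array had been scaled to the same average before deposit, which hides any shift shared by most transcripts.

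The fall was deep for this data set, and it was also less precisely measured than most. Of the tested probe sets, 214 (1.5%) had a lower log2 fold change than PAP20. Among the 1763 probe sets that fell, 210 did (11.9%), and their median log2 fold change was -1.50. Of the 184 falling probe sets with a gene symbol, 21 were lower than PAP20. The SE of PAP20 was larger than that of 92.5% of all tested probe sets, whose median SE was 0.26.

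**Figure D2:**
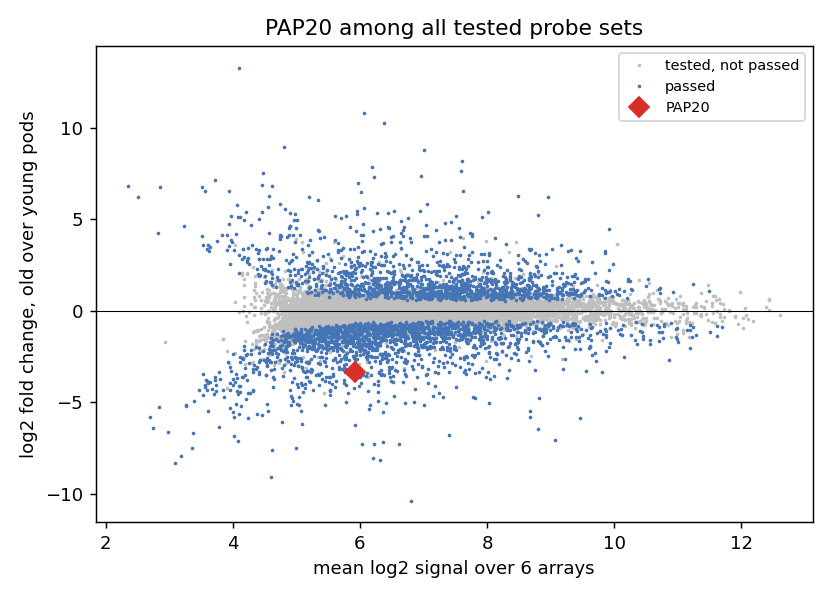
Log2 fold change, old over young pods, against the mean log2 signal over 6 arrays for the 14277 tested probe sets. Blue points passed the threshold and grey points did not, and PAP20 (red diamond, -3.33) lies in the lower part of the blue points, where 214 probe sets are lower.

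The SD of the log2 signal as measured was 1.16 in old pods, where 2 of 3 signals were under the 40th percentile, and 0.46 in young pods. Between arrays with the same replicate number, the log2 difference, old minus young, was -1.80 for replicate 1. For replicates 2 and 3, whose old signals were under the 40th percentile, it was a bound, at -2.66 and -3.51 or lower. All 3 differences ran the same way and the smallest was that of replicate 1. When old replicate 1 was left out no old array was above the 40th percentile, and the fall was at least 7.77-fold, against a fitted 15.7-fold on the signals as measured. With replicates 2 and 3 alone it was at least 8.49-fold, against a fitted 17.1-fold (limma adjusted p = 0.000413). With every signal under the 40th percentile raised to it, the fall was 6.31-fold (limma adjusted p = 0.00116). Raising them made the signals of old replicates 2 and 3 nearly equal, and the SE went from 0.55 to 0.33. The smaller adjusted p is therefore no added evidence. PAP20 passed the threshold in all 15 other fits tried, with adjusted p up to 0.0271.

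**Figure D3:**
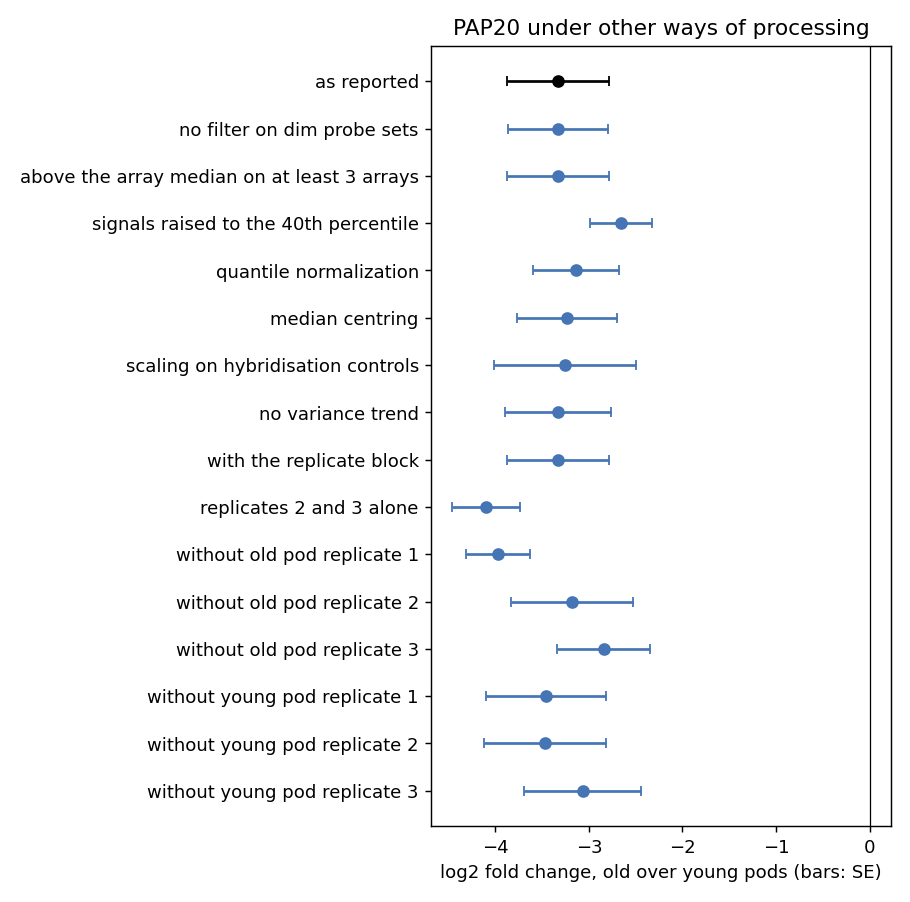
Fitted log2 fold change of PAP20, old over young pods, with its SE, as reported (black) and in 15 other fits (blue). The values lie between -4.10 with replicates 2 and 3 alone and -2.66 with signals raised to the 40th percentile, and none reaches 0.

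Seed coat and green tissue markers were lower in old pods, as PAP20 was, while some senescence, dehiscence and seed markers were higher. Over all tested probe sets, 12.3% passed downward and 9.68% upward. Both seed coat genes with a named probe set, of 5 listed, fell, BAN and DELTA-VPE, and their summed signal was 40.4 to 228 in old pods and 3733 to 6473 in young pods. All 4 green tissue genes with a named probe set, of 6 listed, fell, with a summed signal of 2155 to 2606 in old pods and 5031 to 8505 in young pods. The call of 1 of them, LHCB4.2, ended without replicate 2 or 3 of old pods (limma adjusted p = 0.0864 and 0.0552). It also ended without replicate 2 or 3 of young pods (adjusted p = 0.0736 and 0.0711). Of the 4 senescence genes with a named probe set, of 8 listed, 3 rose, WRKY6, WRKY53 and SAG101. The summed signal of all 4 was 647 to 791.5 in old pods and 222.9 to 301.8 in young pods. The rise of SAG101 is a bound, at least 1.55-fold, as all its young arrays were under the 40th percentile. The SAG101 call ended with low signals raised to the percentile (limma adjusted p = 0.0901) and without replicate 2 of old or of young pods (adjusted p = 0.0811 and 0.0585), and SAG101 was not tested under the filter at the array median. Of 3 valve margin and dehiscence genes, of 8 listed, 1 rose, ADPG1. The sum of all 3 was 1502.5 to 1849.8 in old pods and 582.3 to 965.2 in young pods. Of the 2 seed genes measured, of 11 listed, PAP85 rose, and the sum of both was 393.6 to 5919 in old pods and 174.2 to 1125 in young pods. The rise of PAP85 is also a bound, at least 16.1-fold, as all its young arrays were under the 40th percentile.

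The array of old replicate 1, which had the highest PAP20 signal of the old pods, also had their highest seed and seed coat signals. PAP85 was at 3701 there, against 214.9 and 210.1 on old arrays 2 and 3. OLEO3, an oil body protein, was at 2219 there and at 178.7 and 262.6 on old arrays 2 and 3. On young arrays 1, 2 and 3 OLEO3 was at 1099, 536.4 and 158.4. The seed coat gene BAN was at 46.8, 8.2 and 10.7 on old arrays 1, 2 and 3, the last 2 under the 40th percentile. DELTA-VPE was at 181.2, 41.3 and 29.7 on them. Among the old arrays, WRKY6 and WRKY53 were lowest on that of replicate 1, while the senescence genes SAG101 and SAG29 were highest there. The 2 root genes, PYK10 and EXPA7, were too dim to be tested, and no pollen gene had a named probe set. No marker was listed at 0. RNA quality, read as the mean log2 ratio of 3′ to 5′ probe sets of 3 control transcripts, was 2.19 to 3.20 in old pods and 2.46 to 3.15 in young pods (exact permutation p = 0.8). On average the 3′ signal exceeded the 5′ signal on every array. The test compares the groups and does not show that the RNA was intact. Of the 11 marker genes that passed, 4 also passed with the arrays scaled on the hybridisation controls, BAN, DELTA-VPE, ADPG1 and PAP85. The part of the tissue markers in the PAP20 result was not tested.

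The genes whose pattern was most like that of PAP20 were ACLA-2 and RAPTOR2. The measure was Pearson's r of the log2 signal over the 6 arrays among the 1109 other tested probe sets whose gene has a symbol. ACLA-2, a subunit of ATP-citrate lyase, which makes cytosolic acetyl-CoA, had r = 0.996. Its signal was 131, 73.4 and 59.2 in old pods and 276.2, 291.9 and 451.4 in young pods. As for PAP20, the first old array was the highest of the old ones and the third young array the highest of all. The PAP20 signals of old replicates 2 and 3 were under the 40th percentile, so their order cannot be compared. Every r with PAP20 rests partly on these low signals. ACLA-2 fell 4-fold (SE 0.33 on the log2 scale, limma adjusted p = 0.0052), a call that scaling on the hybridisation controls, transcripts added to every sample, ended (adjusted p = 0.26). RAPTOR2, a homologue of the TOR kinase partner RAPTOR, had r = 0.995, with 40.9, 31.5 and 26 in old pods and 61.8, 57.5 and 64.9 in young pods. RAPTOR2 fell 1.9-fold (limma adjusted p = 0.0394), a call lost under the replicate block (adjusted p = 0.0501), without old replicate 2 or 3 or any 1 young array (adjusted p up to 0.126), and with this scaling (adjusted p = 1). It was also lost with no filter, quantile normalization or median centring (adjusted p up to 0.0694). High values of r were common, since the 6 arrays share the split by age: 102 of these 1109 probe sets (9.2%) had r of at least 0.9 with PAP20.

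Few genes of the wider phosphate response could be set beside PAP20. Of a list of 42 such genes, a named probe set existed for 6, and 5 could be tested: 3 rose, 1 fell and 1 did not pass. The background was 9.68% upward and 12.3% downward. The median log2 fold change of the 5 was 0.67, beside -0.08 over all tested probe sets. LPR1 and LPR2 encode related multicopper oxidases that act in the arrest of root growth when phosphate is low, and they moved in opposite directions.

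LPR1 had signals of 105.3, 38.6 and 42.7 in old pods and 276.6, 174.4 and 361.2 in young pods. The groups did not overlap, and as for PAP20 the first old array was the highest of the old ones. LPR1 fell 4.65-fold (log2 fold change -2.22, SE 0.43, limma adjusted p = 0.00945). LPR2 was at 732.5, 765.9 and 671.1 in old pods and at 368.2, 324 and 293.1 in young pods. LPR2 rose 2.21-fold (log2 fold change 1.14, SE 0.18, limma adjusted p = 0.00399), with close replicates in both groups. The difference between the changes of LPR1 and LPR2 was not tested.

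WRKY6, a transcription factor that represses the phosphate exporter gene PHO1 and acts in senescence, was at 57.9, 161.9 and 171.1 in old pods and at 33, 29.8 and 23.9 in young pods. All young arrays were under the 40th percentile, so its rise is a bound, at least 3.42-fold. The fit on the signals as measured gave a rise of 4.09-fold (limma adjusted p = 0.0128). The WRKY6 call ended without old replicate 2 or 3 (adjusted p = 0.0614 and 0.0518). The locus AT1G63010 of the list, which the annotation does not name, was at 375.6, 409.9 and 383.4 in old pods and at 270.4, 237.2 and 229.1 in young pods. AT1G63010 rose 1.59-fold (limma adjusted p = 0.0255), which did not pass once old or young replicate 2 or 3 was left out (adjusted p up to 0.093). SIZ1, a SUMO ligase that acts in the phosphate response, did not pass, with 119.1 to 208.1 in old pods and 122.8 to 133.5 in young pods (log2 fold change 0.28, limma adjusted p = 0.423). A second SIZ1 probe set and that of WRKY42 were too dim to be tested. Scaling on the hybridisation controls ended the calls of LPR1, LPR2, WRKY6 and AT1G63010 (adjusted p from 0.0925 to 1). PAP20 passed there too (log2 fold change -3.26, limma adjusted p = 0.000839). Its SE was larger with this scaling, 0.76 against 0.55, so the smaller adjusted p is not a gain in precision. The SE of LPR2 rose from 0.18 to 0.84. A call under this scaling thus needs a large fold change, and does not show PAP20 to be better measured than these genes.

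**Figure D4:**
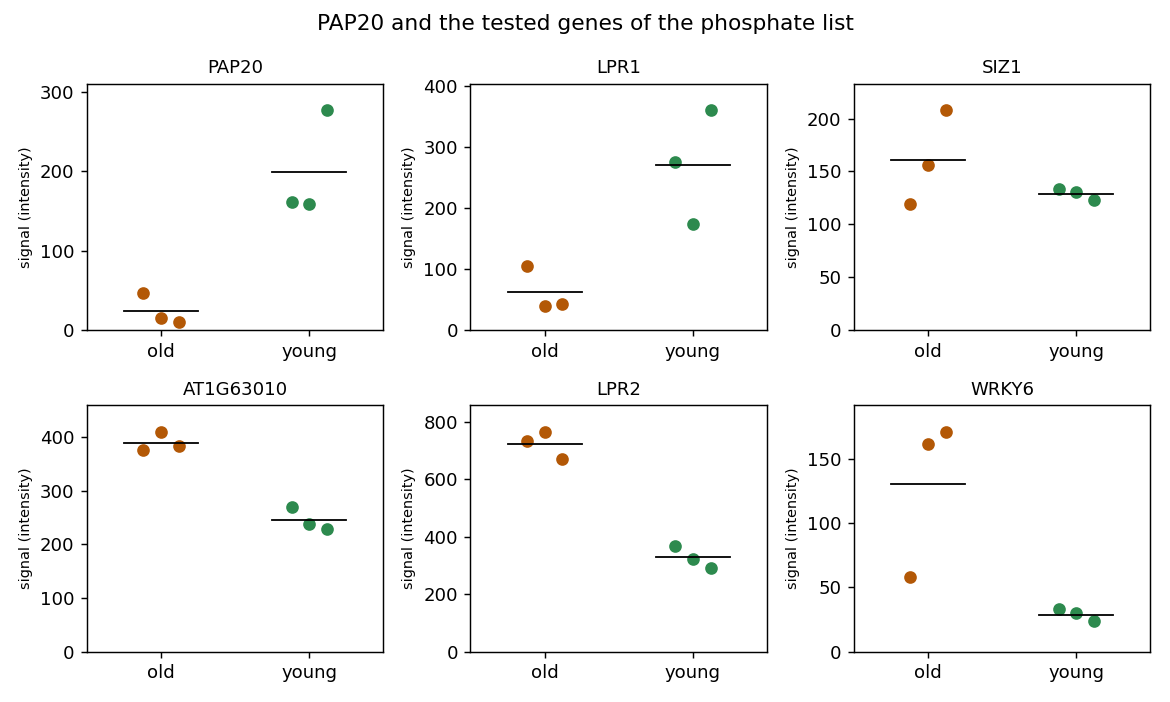
Signal (intensity, linear axis from 0) of PAP20 and of the 5 tested genes of the phosphate list, with 1 point per array, replicates 1 to 3 from left to right, and a line at the group mean. Old pods are lower without overlap for PAP20 and LPR1, higher without overlap for LPR2, AT1G63010 and WRKY6, and overlap with young pods for SIZ1.

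A list of the loci of the purple acid phosphatase family, written for this work from general knowledge, matched 2 further probe sets. The annotation and the reference give their loci, AT1G13750 and AT1G25230, no symbol, so their place in the family was not checked and they were not counted as members. AT1G13750 moved against PAP20, with 133.3, 289.7 and 161.2 in old pods and 70.1, 64.7 and 52.9 in young pods. AT1G13750 rose 2.96-fold (log2 fold change 1.57, SE 0.30, limma adjusted p = 0.00977), a call that scaling on the hybridisation controls ended (adjusted p = 0.394). AT1G25230 was dim, at 8.2, 11.5 and 19.7 in old pods and at 27.9, 37.3 and 43.9 in young pods. Only 2 of its arrays, both of young pods, were above the 40th percentile, so it was not tested. With no filter AT1G25230 did not pass (log2 fold change -1.54, limma adjusted p = 0.0613).

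The neighbours of PAP20 on the chromosome did not all move with it. The nearest 5 genes with a named probe set on each side were taken in the order of the TAIR10.1 reference, and 7 of these 10 were tested, of which 3 fell and none rose, beside 12.3% downward and 9.68% upward over all tested probe sets. FTSZ2-2, which encodes a plastid division protein and lies 5 genes before PAP20, was at 31.3, 29.4 and 27.4 in old pods and at 118.2, 89.5 and 111.8 in young pods. FTSZ2-2 fell 3.61-fold (limma adjusted p = 0.00149). Its old array 1 was under the 40th percentile, and the fall was 3.49-fold with such signals raised to it. FTSZ2-2 did not pass with scaling on the hybridisation controls (adjusted p = 0.238). AT3G52870, 10 genes after PAP20, was at 15.5, 18.9 and 30 in old pods and at 145.6, 109.6 and 139.3 in young pods. AT3G52870 fell 6.32-fold (limma adjusted p = 0.00122), or 4.40-fold with signals under the 40th percentile raised to it. Its old arrays 1 and 2 were under that percentile, so the order of its old arrays cannot be set against that of PAP20. AT3G52740 fell 2.91-fold (limma adjusted p = 0.0176), or 2.01-fold with low signals so raised, as only 1 of its old arrays was above the percentile. The AT3G52740 call ended without old replicate 3 or young replicate 1 or 3, and after quantile normalization (adjusted p up to 0.0591). It also ended with scaling on the hybridisation controls (adjusted p = 0.519). The closest tested gene, AT3G52800, 2 genes after PAP20, did not pass, with 441.3, 459.2 and 557.9 in old pods and 468.3, 382.6 and 308.6 in young pods (log2 fold change 0.34, limma adjusted p = 0.289). PAP21 and PAP22, which lie beyond it, were not analysed here.

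**Figure D5:**
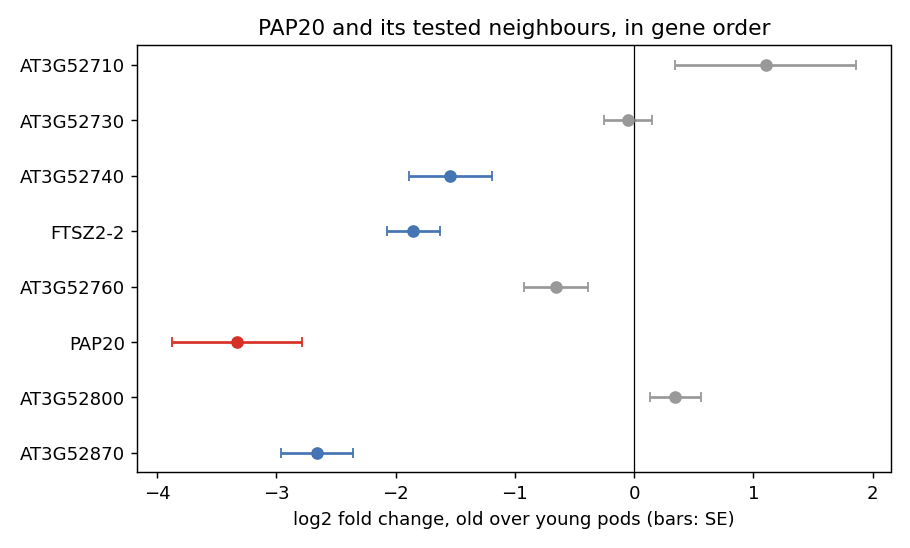
Log2 fold change, old over young pods, with its SE, for PAP20 (red) and its 7 tested neighbours in gene order from top to bottom. Blue genes passed the threshold and grey genes did not, and PAP20, at -3.33, is the lowest of the 8.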

How the data were processed

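Total RNA of 6 samples was measured on ATH1 arrays. The authors deposited an intensity for each probe set, made with MAS5 as the submitters' processing notes state, with no version given. The trimmed mean was about 100 on every array (100.007 with 2% trimmed at each end). Per the platform annotation, 13513 of 22746 probe sets that are not controls name 1 gene, 503 several and 8730 none. Signals under 0.1 were set to 0.1 and taken as log2. A probe set was tested when above the 40th percentile of its array on at least 3 of 6 arrays. The comparison of old against young pods used limma 3.58.1 under R 4.3.3 (lmFit, eBayes with a variance trend), two-sided, with Benjamini-Hochberg adjustment over all 14277 tested probe sets and a threshold of 0.05. The procedure was tested on simulated data, with noise drawn independently for each array. That check does not cover deviations shared between arrays. Of several probe sets for a gene the brightest was used. Precision is limited by the number of arrays.

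The member and the lists were chosen with earlier results of these data known. Named genes were the member, the 2 genes with a symbol most like it, list members that passed and the brightest that did not. The neighbours were added later, by position alone, and so were the values of single genes under each alternative. Arrays correlated at 0.858 to 0.951 within a group and at 0.580 to 0.693 between groups. Arrays with the same replicate number deviated together from their group means, with correlations of 0.286, 0.113 and 0.119, all above 0.1. The numbers were therefore taken to pair the arrays, a hint from the data and not from the labels. Arrays with unlike numbers were not compared in this way, so the hint is weak. The fit as reported left the pairing out, and the alternative with the replicate block put it in. Alternatives changed the filter, the treatment of low signals, the scaling, the variance model, the replicate block and the arrays used.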

Additional observations from a re-analysis of the deposited data

How the results depend on the processing

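PAP20 kept its direction and its side of the threshold in all 15 alternatives. Leaving out 1 array at a time gave fitted log2 fold changes of -3.97 to -2.84 (limma adjusted p 0.000452 to 0.0271), and with the replicate block the value was -3.33 (adjusted p = 0.01). Among the genes named here that passed, the block ended only the call of RAPTOR2. Of the 11 marker genes that passed, 8 did without old replicate 2, where LHCB4.2, WRKY6 and SAG101 were lost, and 9 to 11 with another array left out. The count of all probe sets that passed, 3145 as reported, was 744 with scaling on the hybridisation controls, 1736 to 3602 with 1 array left out and 3480 with the replicate block. It was 1736 without old replicate 2, 2047 without old replicate 3, 1812 without young replicate 2 and 1975 without young replicate 3, and fewer samples entered those fits. Of the phosphate list, 4 genes passed as reported, 0 with scaling on the hybridisation controls and 2 to 4 with 1 array left out, 2 without old replicate 2 or 3. With this scaling the fold changes of named genes moved little while their SEs rose. LPR2 went from 1.14 (SE 0.18) to 1.22 (SE 0.84), and FTSZ2-2 from -1.85 (SE 0.22) to -1.78 (SE 0.76). The median log2 signal of the 18 control probe sets was 9.27, 7.87 and 7.59 on the old arrays. On the young arrays it was 9.10, 8.25 and 7.59. The scaling passes this spread within groups to every probe set. Why the controls differed between arrays was not tested. Choosing family members by locus gave 2 that passed, 1 higher and 1 lower in old pods. The filter was set on all 6 arrays and kept when arrays were left out. Signals near the 40th percentile limit how well the level of PAP20 in old pods is known.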
